A study of Mus musculus with 6 samples.

Results

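The potassium channel genes outside the G protein-gated inward rectifiers were described in brain of mice lacking Gb5 and of wild-type mice. Members were all probe sets that the platform annotation gives to exactly 1 gene whose symbol begins with Kcn and a further letter. The G protein-gated subunit genes Kcnj3, Kcnj5, Kcnj6 and Kcnj9, and Kcnj13, were left out. This gave 151 probe sets of 79 genes, among 45037 probe sets tested and 18193 genes with a probe set of their own. The groups were 3 Gb5-deficient samples (Gb5ko) and 3 wild-type samples (Gb5wt), with 1 Affymetrix array for each and total RNA taken from non-cerebellar brain. Gb5, encoded by Gnb5, is a G protein beta subunit that binds the RGS proteins of the R7 family. Both groups came from littermate cohorts that the labels describe as matched for age and sex, and they name no treatment. Age, strain, the sex of each animal, and the cells in which Gb5 is missing are not stated in those labels. The design text calls the 3 samples of a group biological replicates from mice, but does not say whether animals were pooled.

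Potassium channels let potassium leave or enter a cell, which sets the resting potential of neurons and ends their action potentials. Voltage-gated (Kv) channels open on depolarization, inward rectifiers (Kir) conduct best near rest, and K2P channels carry a background leak. Most channels of the group called calcium-activated open with intracellular calcium, while Kcnt1 and Kcnt2 open with sodium and Kcnu1 with alkaline pH and voltage. Auxiliary subunits form no pore themselves and alter the gating or the surface expression of the channels they bind. The genes fell into these 5 subfamilies as 31 Kv, 10 Kir, 12 K2P, 8 calcium-activated and 15 auxiliary genes, and 3 noncoding RNAs named after a neighbouring channel gene (Kcnmb4os1, Kcnmb4os2 and Kcnq1ot1) were kept apart.

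Promoter sequence was drawn for genes on which the comparison turns. Kcna2 and Kcnc2 are the genes that read lower at an unadjusted p under 0.05, Kcnc4 read higher with both of its probe sets, and Kcnmb4 read higher beside its noncoding neighbours. Each line is the 250 bases before a start listed in the RefSeq promoter table for mouse assembly GRCm38.p6, written 5′ to 3′ on the gene's strand. A listed start need not be the gene's outermost one, and the window of Kcnmb4 lies inside the gene's annotated span and inside Kcnmb4os2. Capitals mark GGGCGG on either strand, the core of the GC box, and TATAAA and TGACGTCA were also searched on both strands.
Kcna2, chr3:107101317-107101566, + strand: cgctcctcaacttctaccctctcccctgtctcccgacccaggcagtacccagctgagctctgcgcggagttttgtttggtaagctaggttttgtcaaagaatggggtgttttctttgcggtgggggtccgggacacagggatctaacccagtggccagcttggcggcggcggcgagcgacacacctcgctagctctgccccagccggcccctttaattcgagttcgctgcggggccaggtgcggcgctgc
Kcnc2, chr10:112269767-112270016, + strand: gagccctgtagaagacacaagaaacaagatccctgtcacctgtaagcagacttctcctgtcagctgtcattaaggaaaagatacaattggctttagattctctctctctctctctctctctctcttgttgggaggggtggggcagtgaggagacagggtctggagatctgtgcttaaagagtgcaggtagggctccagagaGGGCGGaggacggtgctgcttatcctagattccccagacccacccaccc
Kcnc4, chr3:107458899-107459148, - strand: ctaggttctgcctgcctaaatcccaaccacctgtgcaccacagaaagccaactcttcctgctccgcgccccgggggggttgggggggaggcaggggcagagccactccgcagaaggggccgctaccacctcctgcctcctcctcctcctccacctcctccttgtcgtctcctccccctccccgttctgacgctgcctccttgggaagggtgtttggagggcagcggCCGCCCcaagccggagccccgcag
Kcnmb4, chr10:116473524-116473773, - strand: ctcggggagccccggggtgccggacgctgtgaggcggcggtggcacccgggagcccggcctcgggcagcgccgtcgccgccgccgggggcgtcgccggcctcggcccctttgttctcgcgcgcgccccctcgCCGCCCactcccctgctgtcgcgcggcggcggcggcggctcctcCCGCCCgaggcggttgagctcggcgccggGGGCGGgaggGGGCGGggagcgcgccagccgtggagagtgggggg
The window of Kcna2 held none of the 3 motifs, those of Kcnc2 and Kcnc4 held GGGCGG at 1 place each, and that of Kcnmb4 held it at 4. Kcnc2 has 4 windows in the RefSeq table, of which the one shown is the first listed, and the other 3 held 0 of the motifs. Kcnmb4 also held 43 CG dinucleotides, against 18 for Kcna2, 12 for Kcnc4 and 2 for Kcnc2. Windows were on hand for 59 of the 79 genes, 83 in all. Of these, 45.8% held GGGCGG against 32.7% of 32851 windows of all genes, and 1.20% held TATAAA against 12.4%. TGACGTCA, the cAMP response element, was in 0 of 83 against 1.55% of all. By subfamily, GGGCGG was in 14 of 26 Kv windows, 7 of 14 K2P, 3 of 6 calcium-activated, 4 of 11 Kir and 9 of 24 auxiliary windows. Windows of 1 gene may overlap, and a match is a description of letters only.

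The 6 arrays and their labels were checked first. Gnb5 read 3.67, 3.00 and 3.56 on the Gb5ko arrays against 8.79, 8.98 and 9.30 on the Gb5wt arrays, a difference of -5.62 ± 0.193 (limma adjusted p = 4.48e-06). The exact permutation test gave p = 0.1, two-sided, below which this design of 3 against 3 cannot go. Array medians lay close together, and pairs of arrays correlated, across the member probe sets (no independent replicates), at 0.987 to 0.997. All 13 markers of neurons lay at or above percentile 87.8 of the wild-type signals. Markers of other cell types gave the following values, and 0 of them passed the adjusted limma threshold. All 10 measured oligodendrocyte markers read lower in knockouts, with a median of -0.25 and a list mean of 9.59 to 10.18 in knockouts against 10.01 to 10.41 in wild types. Microglial markers read higher at 8 of 10 genes, with a median of 0.16 (list mean 8.22 to 8.28 against 8.09 to 8.13). Endothelial and mural markers read lower at 9 of 10, with a median of -0.13 (8.12 to 8.25 against 8.24 to 8.52). Pituitary markers read higher at 7 of 7, with a median of 0.52 (4.28 to 6.90 against 4.26 to 4.99), the highest on Gb5ko replicate 3. Medians were -0.00 for neurons, -0.08 for astrocytes, 0.14 for oligodendrocyte precursors, -0.09 for choroid plexus, 0.10 for cerebellum and 0.11 for genes of heart, kidney, muscle and inner ear. Single markers lay further out. At an unadjusted limma p under 0.05, the neuronal Snap25 and Gad1 were lower, each at -0.33, and 0 neuronal markers were higher. Of the astrocyte markers Gjb6 (-0.59), Gja1 (-0.45) and Slc1a3 (-0.28) were lower and Aldh1l1 (0.35) higher. Among all genes 5.68% were lower and 9.89% higher at that level. Eif2s3y, a Y-linked gene, read 2.96, 11.28 and 6.97 on the Gb5ko arrays against 11.26, 6.05 and 4.05 on the Gb5wt arrays. Xist, the RNA of the inactive X chromosome, read 10.48, 7.47 and 11.05 on the Gb5ko arrays against 3.28, 11.22 and 10.95 on the Gb5wt arrays. The arrays thus differed in these sex-linked signals within each group, and Gb5ko replicates 2 and 3 and Gb5wt replicate 5 carried both at middle or high values. The arrays of highest Eif2s3y were Gb5ko replicate 2 and Gb5wt replicate 4, and those of highest Gh were Gb5ko replicate 3 and Gb5wt replicate 6. The 3′ minus 5′ signal of the Gapdh control, a sign of RNA integrity, was 1.16 to 1.30 in knockouts and 1.03 to 1.38 in wild types. That of the beta-actin control was larger, at 3.22 to 3.31 in knockouts and 3.04 to 3.40 in wild types. The groups overlapped for both controls. In bulk tissue, fewer cells of a type and less RNA per cell cannot be told apart, and the part of these markers in the values below was not tested.

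Signal in wild-type brain was read for each gene through its brightest probe set and is given as log2 intensity and as a percentile among all probe sets. It depends on the probes as well as on the transcript, so the order of genes is one of signals and not of transcript amounts, and no detection call was available. Of the 79 genes, 52 lay above the median of all probe sets and 27 lay above percentile 80. Kv genes had a median signal of 8.17 with 14 of 31 genes above percentile 80. Medians were 7.76 for calcium-activated genes with 3 of 8 above that level, 7.20 for auxiliary genes with 4 of 15, 6.67 for Kir genes with 2 of 10 and 5.65 for K2P genes with 3 of 12. Over all 18193 genes the median was 7.35 and 5875 lay above percentile 80. Subfamilies therefore overlapped widely in signal, each holding genes above percentile 80 and genes below the median of all probe sets, 5.82. In all 5 subfamilies the median was lower when every probe set was counted, at 6.54, 7.32, 6.36, 5.23 and 4.88 in the order given, since second probe sets of a gene are dimmer by this choice.

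**Figure D1:**
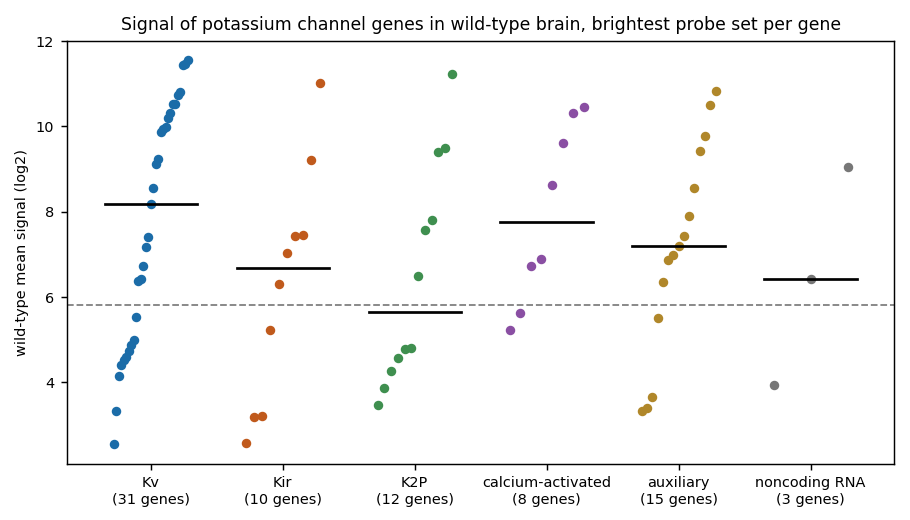
Wild-type mean signal (log2, vertical axis) of each potassium channel gene by subfamily, 1 point per gene read through its brightest probe set, with the bar at the subfamily median and the dashed line at the median of all probe sets, 5.82. The Kv bar stands at 8.17 and the K2P bar at 5.65, and points of the 5 subfamilies overlap.

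The comparison of genotypes asked whether loss of Gb5 went with different transcript levels of these channels. With limma and Benjamini-Hochberg adjustment over all probe sets, 0 of 151 member probe sets passed a threshold of 0.05, where 0.0266% of all probe sets did, and the smallest adjusted p of a member was 0.235. At an unadjusted limma p under 0.05, 17 of 151 differed, 11.3%, against 14.4% of all probe sets. Of these, 15 were higher in knockouts, against a background of 8.09%, and 2 were lower, against 6.33%. Read through 1 probe set per gene, 8 of 79 genes were higher and 2 lower at that level, against 9.89% and 5.68% of all genes (15.6% in either direction). Groups did not overlap at 14 of 79 genes, 17.7%, against 25.1% of all genes. Of these, 11 were higher, against 16.1%, and 3 lower, against 9.01%. Over probe sets, groups did not overlap at 30 of 151, against 21.5%, with 26 higher against 12.5% and 4 lower against 8.95%. Differences were positive at 91 of 151 probe sets, against 55.5%. The shares of potassium channel genes thus lay near or below those of all genes, apart from the 26 probe sets higher without overlap, 17.2% of 151. Trend and robust eBayes, array weights and a threshold of 0.1 also gave 0 passing probe sets.

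Read through the brightest probe set, the differences had narrow intervals. For all 79 genes the 95% interval of the difference lay within 2-fold in either direction, and for 63 it lay within 1.5-fold. The median distance from the difference to its bound was 0.27 on the log2 scale, a factor of 1.21. Gene differences ran from -0.33 for Kcna2 to 0.43 for Kcnip3. The intervals assume that 3 arrays stand for their group, and a small difference in a cell type that makes up little of the tissue is not bounded by them. Dimmer probe sets can be wider, as 1 of Kcnq5 with an interval of -2.58 to 0.30. At or below the median signal of all probe sets lay 27 of the 79 genes. Differences near the floor are compressed after RMA, so narrow intervals of dim genes do not bound the transcript.

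**Figure D2:**
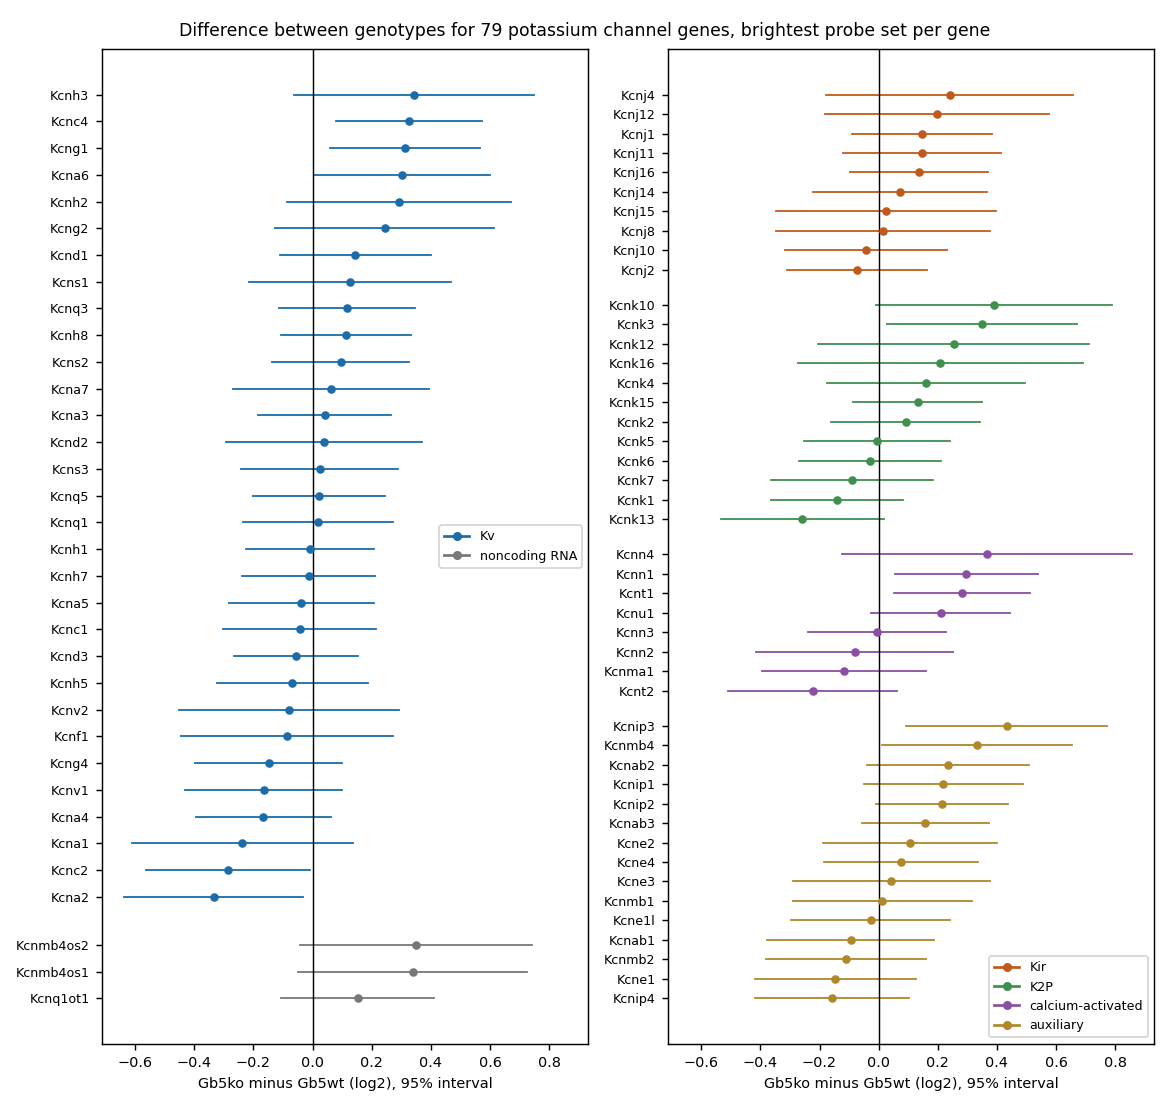
Gb5ko minus Gb5wt on the log2 scale (horizontal axis) with its 95% limma interval for 79 potassium channel genes, 1 row per gene read through its brightest probe set, coloured by subfamily. Kcna2 at -0.33 and Kcnc2 at -0.29 lie lowest, Kcnip3 at 0.43 lies highest, and most intervals cross 0.

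The subfamily medians lay close together. Median differences were 0.02 for Kv, 0.10 for Kir, 0.11 for K2P, 0.10 for calcium-activated and 0.08 for auxiliary genes, against 0.05 over all genes. Positive differences were found at 17 of 31 Kv, 8 of 10 Kir, 7 of 12 K2P, 4 of 8 calcium-activated and 10 of 15 auxiliary genes, and at 49 of all 79, 62.0%, against 59.9% of all genes. At an unadjusted p under 0.05, 3 Kv, 0 Kir, 1 K2P, 2 calcium-activated and 2 auxiliary genes were higher, and the 2 lower genes were both Kv, against 9.89% higher and 5.68% lower among all genes. Whether subfamilies differ from one another was not tested. The medians moved with single arrays. The Kir median was 0.05 without Gb5wt replicate 4 and 0.15 without Gb5ko replicate 2, and the Kv median ran from -0.01 without Gb5wt replicate 6 to 0.05 without Gb5ko replicate 1. Without the 2 arrays of highest Eif2s3y, the auxiliary median was -0.00, and without those of highest Gh it was 0.19 and that of Kv was -0.03.

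**Figure D3:**
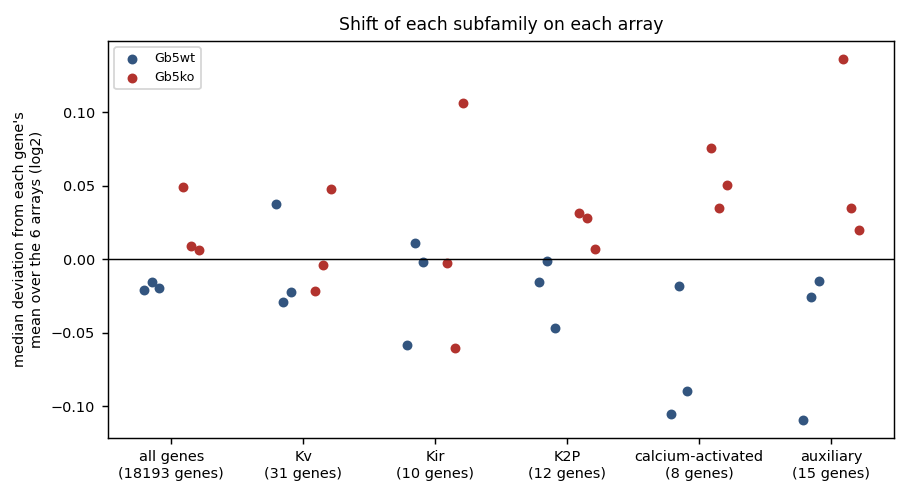
Median deviation of the genes of each subfamily from their own mean over the 6 arrays (log2, vertical axis), 1 point per array, with all genes at the left. Knockout and wild-type arrays overlap for Kv and Kir, while the auxiliary genes spread from -0.11 on Gb5wt replicate 4 to 0.14 on Gb5ko replicate 1.

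On single arrays the auxiliary genes deviated by 0.14, 0.04 and 0.02 in the knockouts and by -0.11, -0.03 and -0.01 in the wild types. The calcium-activated genes deviated by 0.08, 0.03 and 0.05 against -0.11, -0.02 and -0.09. For both, the 3 knockout arrays lay above the 3 wild-type arrays, as they did for K2P genes and over all genes, where deviations were 0.05, 0.01 and 0.01 against -0.02, -0.02 and -0.02. Kv genes deviated by -0.02, -0.00 and 0.05 against 0.04, -0.03 and -0.02, with no separation of the groups.

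Kv1 genes encode axonal and dendritic channels that open at low voltages. Kcna2, an axonal subunit concentrated beside nodes of Ranvier, read 10.13, 10.51 and 10.59 on the Gb5ko arrays against 10.66, 10.78 and 10.78 on the Gb5wt arrays. All knockout values lay below all wild-type values, and Gb5ko replicate 1 was the lowest. The difference was -0.33 ± 0.134 (limma adjusted p = 0.311) and did not pass. A second bright probe set of Kcna2, at a mean of 10.41, differed by -0.06 with overlapping groups, and the other 2, both dim, differed by 0.22 and 0.12. The 2 bright probe sets of Kcna2 thus shared a sign but not a size, and only the dim ones were positive. Kcna1, its usual partner in axons, read 9.91, 10.46 and 10.52 on the Gb5ko arrays against 10.40, 10.55 and 10.65 on the Gb5wt arrays. Its groups overlapped, and it differed by -0.24 (95% interval -0.61 to 0.14). Other Kcna1 probe sets, at means of 9.92, 9.20 and 2.57, differed by 0.06, -0.19 and -0.02. Kcna4, an A-type subunit of axons and terminals, differed by -0.17. Its second probe set, at a mean of 7.19, differed by 0.17 without overlap. Kcna6 differed by 0.30, and its other probe sets, both dim, by 0.36 and -0.26. Kcna6 read 9.63, 9.23 and 9.42 on the Gb5ko arrays against 8.98, 9.12 and 9.27 on the Gb5wt arrays, with 1 knockout value below the highest wild type. Kcna3, Kcna5 and Kcna7 differed by 0.04, -0.04 and 0.06.

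Kv3 channels repolarize fast-spiking neurons. Kcnc2, expressed in many interneurons, read 10.03, 10.36 and 10.34 on the Gb5ko arrays against 10.47, 10.47 and 10.65 on the Gb5wt arrays. The groups did not overlap, and the single probe set of this gene differed by -0.29 ± 0.122 (limma adjusted p = 0.333). Kcnc4 went the other way. It read 10.48, 10.17 and 10.32 on the Gb5ko arrays against 10.00, 10.01 and 9.99 on the Gb5wt arrays, with wild-type values close together (SD 0.00994, n = 3) and each knockout value above them. The difference was 0.33 ± 0.110 (limma adjusted p = 0.266), with the smallest p among Kv genes. A dimmer Kcnc4 probe set, at a mean of 6.91, differed by 0.32, also without overlap. Kcnc1, the third measured Kv3 gene, differed by -0.04 (95% interval -0.30 to 0.21). Its dimmer probe sets, at means of 8.56, 4.54 and 5.56, were all positive, at 0.24, 0.20 and 0.05. By brightest probe set, differences in this branch had both signs.

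**Figure D4:**
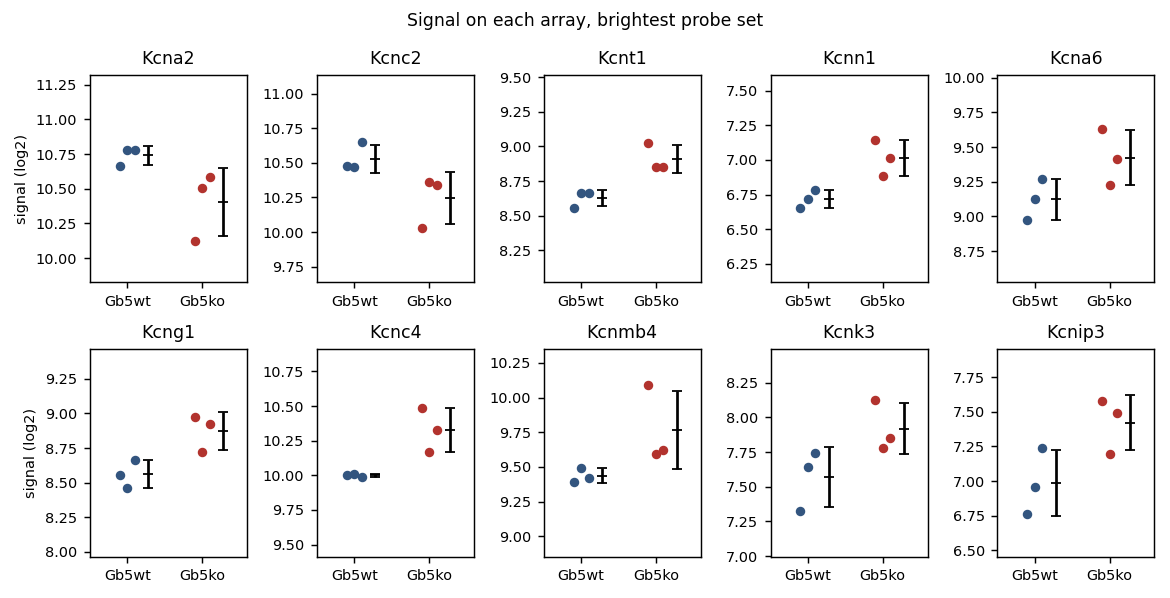
Signal on each array (log2, vertical axis, the same span of 1.5 in each panel) for the 10 potassium channel genes at an unadjusted p under 0.05, through the brightest probe set, with group mean and SD beside the points (n = 3). In all 10 panels Gb5ko replicate 1, the first red point, is the most extreme of the knockouts, and none of the 10 passed the adjusted threshold.

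Kv4 channels carry the transient current of dendrites. Kcnd3 read 11.39, 11.41 and 11.36 on the Gb5ko arrays against 11.48, 11.42 and 11.44 on the Gb5wt arrays. Its groups separated by a narrow margin and differed by only -0.06 ± 0.0928 (limma adjusted p = 0.810). Kcnd2, the other main brain Kv4 subunit, differed by 0.04 and Kcnd1 by 0.14. A dimmer Kcnd1 probe set, at a mean of 5.77, differed by 0.34 without overlap, and another, at 3.41, by 0.03. The other 3 Kcnd2 probe sets were negative, from -0.17 to -0.13. Kv7 channels carry the M current that muscarinic receptors shut. Kcnq3, with the highest signal of the Kv genes, read 11.59, 11.74 and 11.70 on the Gb5ko arrays against 11.66, 11.50 and 11.53 on the Gb5wt arrays. It differed by 0.12 ± 0.101 (limma adjusted p = 0.619). Kcnq5 read 11.41, 11.54 and 11.53 on the Gb5ko arrays against 11.51, 11.51 and 11.40 on the Gb5wt arrays, which overlapped, and differed by 0.02 ± 0.0987 (limma adjusted p = 0.936).

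One further Kcnq5 probe set held the largest difference of any member, and it rested on 1 array. It read 7.82, 7.97 and 5.06 on the Gb5ko arrays against 8.19, 8.08 and 7.99 on the Gb5wt arrays. Gb5ko replicate 3 alone stood far below the other arrays. The difference was -1.14 (limma adjusted p = 0.437) over all arrays and -0.19 (limma adjusted p = 0.500) without that array. The other dimmer Kcnq5 probe set, at a mean of 8.37, differed by -0.14. The probe set that rested on 1 array was singled out after its values were seen.

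**Figure D5:**
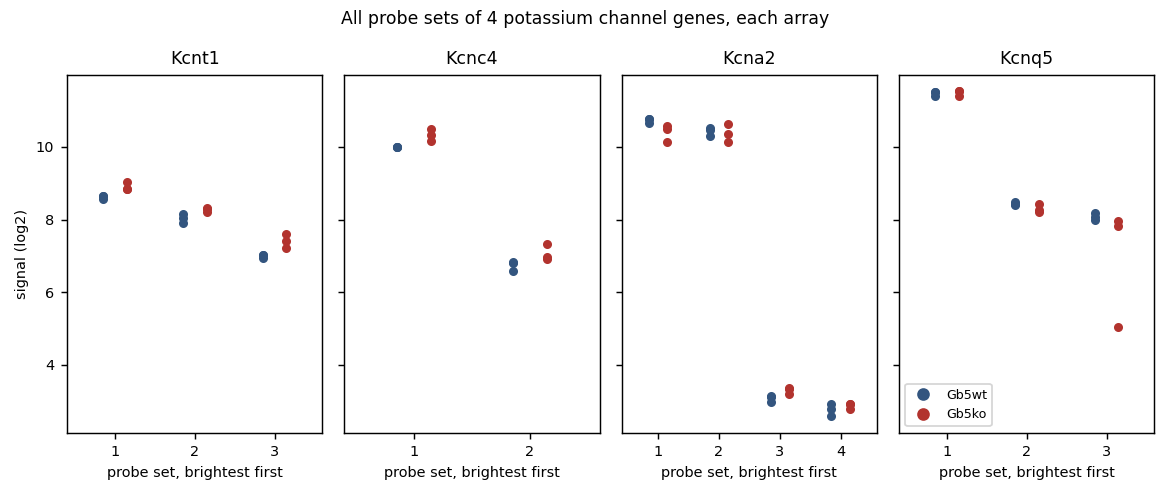
Signal of every probe set of Kcnt1, Kcnc4, Kcna2 and Kcnq5 (log2, vertical axis), 1 point per array, with wild types at the left and knockouts at the right of each pair and probe sets ordered from the brightest. All 3 probe sets of Kcnt1 and both of Kcnc4 separate the groups upward, while Kcnq5 holds a single knockout point at 5.06.

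Silent Kv genes encode subunits that form no channel alone and modify those of the Kv2 branch. Kcng1 read 8.98, 8.72 and 8.92 on the Gb5ko arrays against 8.56, 8.46 and 8.66 on the Gb5wt arrays. All knockouts lay above all wild types, and it differed by 0.31 ± 0.112 (limma adjusted p = 0.279), while a dim Kcng1 probe set at 3.69 differed by -0.08. Kcnf1 and Kcnv1, bright genes of this branch, differed by -0.09 and -0.16. A second Kcnf1 probe set, at a mean of 6.55, differed by 0.38 without overlap. The 3 probe sets of Kcnv1 ran from -0.34 to -0.16, all negative. Among the EAG branch, which includes the ERG channels, Kcnh1 differed by -0.01, Kcnh2 by 0.29 and Kcnh3 by 0.34. The 4 probe sets of Kcnh3 ran from -0.16 to 0.34. Kcnh2 read 7.41, 6.71 and 6.93 on the Gb5ko arrays against 6.74, 6.66 and 6.77 on the Gb5wt arrays, with Gb5ko replicate 1 the highest and Gb5ko replicate 2 inside the wild-type range. The remaining Kv genes differed by -0.15 (Kcng4) to 0.24 (Kcng2).

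Of the inward rectifiers other than the G protein-gated ones, 0 of 10 reached an unadjusted p under 0.05, where 15.6% of all genes did. Kcnj10, the main channel of astrocytes and oligodendrocytes for taking up potassium, read 10.88, 10.95 and 11.08 on the Gb5ko arrays against 10.81, 11.15 and 11.08 on the Gb5wt arrays. The groups overlapped and differed by -0.04 ± 0.121 (limma adjusted p = 0.895, 95% interval -0.32 to 0.23). Kcnj16, which joins Kcnj10 in glial channels, read 9.26, 9.32 and 9.46 on the Gb5ko arrays against 9.13, 9.20 and 9.29 on the Gb5wt arrays and differed by 0.14 ± 0.104 (limma adjusted p = 0.565). Its second probe set differed by 0.21 without overlap.

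Kcnj11, the pore of ATP-sensitive channels, read 7.59, 7.44 and 7.74 on the Gb5ko arrays against 7.32, 7.44 and 7.56 on the Gb5wt arrays and differed by 0.15 ± 0.118. Kcnj8, the vascular pore of that kind, differed by 0.01. Kcnj4, a strong rectifier of forebrain neurons, read 7.75, 7.02 and 7.06 on the Gb5ko arrays against 7.14, 6.95 and 7.02 on the Gb5wt arrays. Only Gb5ko replicate 1 was high, and the difference of 0.24 ± 0.185 was 0.00 without it. Kcnj1, best known in the kidney, read 3.30, 3.50 and 3.29 on the Gb5ko arrays against 3.29, 3.20 and 3.17 on the Gb5wt arrays, a dim signal at percentile 15.4 of wild types that differed by 0.15 ± 0.105. It was the only member on chromosome 9, which carries Gnb5, at 1029 annotated genes from it. Limma adjusted p values of Kcnj11, Kcnj4 and Kcnj1 were 0.588, 0.572 and 0.538. Kcnj2, Kcnj12, Kcnj14 and Kcnj15 differed by -0.07, 0.20, 0.07 and 0.02. Of the genes left out, Kcnj3 differed by -0.28, Kcnj5 by 0.18, Kcnj6 by -0.16, Kcnj9 by 0.49 and Kcnj13 by -0.32, none past the adjusted threshold. Without Gb5wt replicate 6, the lowest array for Kcnj9, its difference was 0.14.

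K2P genes set the leak conductance of neurons and glia. Kcnk1 read 11.06, 11.05 and 11.17 on the Gb5ko arrays against 11.23, 11.17 and 11.31 on the Gb5wt arrays. It differed by -0.14 ± 0.0988 (limma adjusted p = 0.537), with overlapping groups, and its second probe set differed by 0.18 in the other direction without overlap. Kcnk3, an acid-sensitive leak channel, read 8.13, 7.78 and 7.85 on the Gb5ko arrays against 7.32, 7.65 and 7.74 on the Gb5wt arrays. Knockouts lay above wild types by a narrow margin, and the difference of 0.35 ± 0.142 (limma adjusted p = 0.318) had the smallest p among K2P genes. Other Kcnk3 probe sets, at 5.56 and 2.98, differed by 0.07 and 0.05. Kcnk10, a lipid- and stretch-sensitive channel, read 8.51, 8.28 and 7.82 on the Gb5ko arrays against 8.01, 7.75 and 7.67 on the Gb5wt arrays, with Gb5ko replicate 3 inside the wild-type range, and differed by 0.39 ± 0.177 (limma adjusted p = 0.355). Kcnk2, its close relative, differed by 0.09 ± 0.112 (limma adjusted p = 0.736). It read 9.49, 9.70 and 9.56 on the Gb5ko arrays against 9.43, 9.41 and 9.64 on the Gb5wt arrays, with overlap.

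Kcnk15 read 9.60, 9.54 and 9.48 on the Gb5ko arrays against 9.47, 9.39 and 9.36 on the Gb5wt arrays, groups that did not overlap but differed by only 0.13 ± 0.0970 (limma adjusted p = 0.552). Kcnk13, a halothane-inhibited channel that microglia carry, read 4.37, 4.56 and 4.67 on the Gb5ko arrays against 4.64, 4.93 and 4.79 on the Gb5wt arrays. It read lower, at -0.26 ± 0.121 (limma adjusted p = 0.367), and its second, dimmer probe set also had a negative sign, at -0.12. Kcnk5, Kcnk6 and Kcnk7 differed by -0.01, -0.03 and -0.09. Kcnk4, Kcnk12 and Kcnk16, all below the median signal, differed by 0.16, 0.25 and 0.21. The difference of Kcnk12 was 0.00 without Gb5ko replicate 1, and that of Kcnk16 was -0.01 without Gb5ko replicate 3.

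Among calcium-activated genes, the dimmest probe set of Kcnt1 held the smallest p of the 151 member probe sets. Read through the brightest probe set, Kcnc4 had a smaller p than Kcnt1, and Kcnn1 and Kcnt1 were nearly equal. Kcnt1 encodes a sodium-activated channel that slows firing after bursts. Its brightest probe set read 9.03, 8.85 and 8.85 on the Gb5ko arrays against 8.56, 8.66 and 8.66 on the Gb5wt arrays. Its second read 8.32, 8.30 and 8.22 on the Gb5ko arrays against 7.91, 8.16 and 8.05 on the Gb5wt arrays. The dimmest read 7.62, 7.22 and 7.42 on the Gb5ko arrays against 6.95, 7.03 and 7.03 on the Gb5wt arrays. All 3 separated the groups upward, by 0.28 ± 0.102, 0.24 and 0.42, with limma adjusted p values of 0.280, 0.342 and 0.235. Probe sets of 1 gene share the RNA samples and are not separate evidence. Kcnt2, its paralog, read 10.05, 10.22 and 10.00 on the Gb5ko arrays against 10.54, 10.20 and 10.20 on the Gb5wt arrays and differed by -0.22 ± 0.126 (limma adjusted p = 0.443), in the opposite direction and with overlap.

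Kcnma1, the pore of BK channels, read 10.16, 10.31 and 10.52 on the Gb5ko arrays against 10.42, 10.35 and 10.57 on the Gb5wt arrays. The groups overlapped and differed by -0.12 ± 0.123 (limma adjusted p = 0.690), and its 5 probe sets ran from -0.12 to 0.21. Kcnn1, an SK channel of the afterhyperpolarization, read 7.14, 6.88 and 7.01 on the Gb5ko arrays against 6.65, 6.72 and 6.78 on the Gb5wt arrays. Each knockout value lay above each wild-type value, at 0.30 ± 0.107 (limma adjusted p = 0.280), and a second probe set differed by 0.10. Kcnn2, a relative abundant in forebrain, read 9.66, 9.69 and 9.22 on the Gb5ko arrays against 9.77, 9.57 and 9.47 on the Gb5wt arrays. It overlapped, at -0.08 ± 0.147 (limma adjusted p = 0.833), as did Kcnn3 at -0.00. Kcnn4, the intermediate channel of blood and microglial cells, differed by 0.37 with an interval of -0.12 to 0.86, the highest upper bound among the 79 genes. A second Kcnn4 probe set, at a mean of 4.70, differed by 0.00. Kcnu1, the sperm relative of Kcnma1, read 7.05, 7.05 and 7.20 on the Gb5ko arrays against 6.79, 6.91 and 6.98 on the Gb5wt arrays, without overlap, and differed by 0.21 ± 0.105 (limma adjusted p = 0.391). Its signal, at percentile 61.2, was not shown to come from that transcript.

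Auxiliary genes included the largest difference by brightest probe set. Kcnip3, a calcium sensor that binds Kv4 channels and also DNA, read 7.57, 7.20 and 7.49 on the Gb5ko arrays against 6.76, 6.96 and 7.24 on the Gb5wt arrays. The lowest knockout value lay below the highest wild type, and the difference of 0.43 ± 0.150 (limma adjusted p = 0.270) did not pass. A second Kcnip3 probe set differed by 0.24. Kcnip2 read 10.81, 10.63 and 10.72 on the Gb5ko arrays against 10.46, 10.54 and 10.53 on the Gb5wt arrays, without overlap, and differed by 0.21 ± 0.0990 (limma adjusted p = 0.359), though its dimmer probe sets differed by -0.05 and 0.01. Kcnip4 read 10.48, 10.80 and 10.71 on the Gb5ko arrays against 10.75, 10.91 and 10.79 on the Gb5wt arrays and differed by -0.16 ± 0.115 (limma adjusted p = 0.549). All 3 of its probe sets were negative, from -0.17 to -0.15. Kcnip1 differed by 0.22, and its dimmer probe sets differed by 0.26, -0.05 and -0.08. By brightest probe set, Kv4-binding KChIP genes were thus positive at 3 of 4, against 59.9% of all genes.

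Kv beta subunits bind Kv1 channels. Kcnab1 read 9.45, 9.77 and 9.85 on the Gb5ko arrays against 9.71, 9.83 and 9.81 on the Gb5wt arrays and differed by -0.09 ± 0.125 (limma adjusted p = 0.760). Kcnab2 read 8.21, 7.97 and 8.22 on the Gb5ko arrays against 7.74, 7.91 and 8.05 on the Gb5wt arrays and differed by 0.23 ± 0.122 (limma adjusted p = 0.406). Both overlapped, while Kcnab3 differed by 0.16 without overlap and its dimmer probe set by 0.40, an unadjusted limma difference that did not pass (adjusted p = 0.269). The 5 KCNE genes ran from -0.15 for Kcne1 to 0.11 for Kcne2, with 0 at an unadjusted p under 0.05. Kcne2 is also a choroid plexus gene, and the 8 choroid plexus markers had a median of -0.09.

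Kcnmb4 encodes the neuronal beta subunit of BK channels. It read 10.09, 9.59 and 9.62 on the Gb5ko arrays against 9.39, 9.50 and 9.42 on the Gb5wt arrays. Gb5ko replicate 1 stood well above the others, and the difference of 0.33 ± 0.143 (limma adjusted p = 0.335) was 0.17 without it. Kcnmb1 and Kcnmb2 differed by 0.01 and -0.11. The noncoding RNAs Kcnmb4os1 and Kcnmb4os2 overlap it in GRCm38.p6, where Kcnmb4 spans chr10:116417861-116473859. Kcnmb4os1 lies inside that span at chr10:116418121-116421235, and Kcnmb4os2, on the opposite strand, shares 697 bases with its start at chr10:116473163-116474987. Kcnmb4os2 read 7.15, 6.66 and 6.50 on the Gb5ko arrays against 6.63, 6.31 and 6.32 on the Gb5wt arrays, and Kcnmb4os1 read 4.67, 3.92 and 4.24 on the Gb5ko arrays against 3.96, 3.88 and 3.96 on the Gb5wt arrays. Gb5ko replicate 1 was again the highest array for both, and they differed by 0.35 and 0.34 with limma adjusted p values of 0.388 and 0.395. The strand that each probe set reads is not given in the annotation used. Kcnq1ot1, the imprinted antisense RNA of Kcnq1, had 6 probe sets that ran from -0.44 to 0.41, so it had no single direction, and Kcnq1 itself differed by 0.02.

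The differences nearest the threshold moved with single arrays of both groups. Of the 10 genes at an unadjusted p under 0.05, Gb5ko replicate 1 was the most extreme knockout in all 10, against 74.1% of the 2832 genes at that level among all genes and 53.2% of all 79 members. Gb5wt replicate 4 was the most extreme wild type in 6 of the 10, against 54.6% of those 2832 genes. Of the sex-linked signals given above, Eif2s3y was lowest on Gb5ko replicate 1 (2.96) and Xist on Gb5wt replicate 4 (3.28). The part of sex in these differences was not tested. Without Gb5ko replicate 1, 1 of the 10 (Kcnc4) stayed under 0.05, although all 10 kept their sign and from 51.4% to 83.3% of their size. Leaving out the most extreme array of a group always shrinks a difference, so that these 10 fell was fixed in advance. Other genes moved further without Gb5ko replicate 1. The difference became -0.05 for Kcna1, 0.06 for Kcng2, 0.09 for Kcnh2, 0.14 for Kcnh3, 0.14 for Kcnmb4os1 and 0.16 for Kcnmb4os2. Without Gb5wt replicate 4 it became 0.14 for Kcnn4 and -0.11 for Kcnt2. The 15 higher probe sets became 8 without Gb5ko replicate 1, 7 without Gb5wt replicate 4 and 8 without Gb5wt replicate 5. The 2 lower ones became 1 without Gb5ko replicate 1, 0 without Gb5wt replicates 5 or 6, and 7 without Gb5ko replicate 3. Over all probe sets the share under 0.05 was 9.74% without Gb5ko replicate 1.

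Probe sets of 1 gene could disagree in sign, some of them through dim probe sets such as those of Kcng1 at 3.69 and Kcnd3 at 3.35. The same count was not made over all genes, so it is not a trait of these genes. Of 42 genes with more than 1 probe set, 24 held both signs, 15 were positive throughout and 3, Kcnip4, Kcnk13 and Kcnv1, were negative throughout. None of the 79 had probe sets of opposite sign that were both at an unadjusted p under 0.05. Kcnt1 and Kcnc4 were the genes with more than 1 probe set at that level.

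Genes that act with these channels gave 0 calls in limma at the adjusted threshold, with 0.022% of all genes past it. Of 14 Kv partner proteins, 8 were positive with a median of 0.01, and 2 were higher at an unadjusted p under 0.05, against 9.89% of all genes. These were Dlg4, the postsynaptic scaffold that clusters Kv1 channels, at 0.36 ± 0.122, and Dpp6, which speeds Kv4 gating, at 0.24 ± 0.103. Other members of the Dlg family differed by -0.22 (Dlg1), -0.17 (Dlg2) and 0.01 (Dlg3). Cntnap2, Cntn2, Lgi1, Vapb and Adam22 differed by 0.21, 0.23, 0.17, 0.10 and 0.00. Amigo1, Vapa, Adam23 and Dpp10 differed by -0.18, -0.17, -0.16 and -0.12. Groups did not overlap for Dlg4, Dpp6 and Cntnap2, which read higher, against 16.1% of all genes. Nor did they for Dlg2, Amigo1 and Vapa, which read lower, against 9.01%. Abcc8, the sulfonylurea receptor of neuronal ATP-sensitive channels, differed by 0.43 ± 0.133 (limma adjusted p = 0.251), without overlap, and the vascular Abcc9 by -0.12. Of 4 BK gamma genes measured, Lingo1 was higher at that level, at 0.36, and 3 were dim. Of 2 HCN pacemaker genes, Hcn3 differed by 0.45 and Hcn2 by 0.04. Of 7 pump and cotransporter genes, Slc12a7 was higher at an unadjusted p under 0.05, at 0.30, while Slc12a5, the neuronal chloride and potassium exporter, differed by 0.05.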

How the data were processed

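Total RNA, 6 ug per sample, was labelled with biotin for Affymetrix arrays, per the labels' protocols. The authors deposited log2 values normalized before deposit. RMA and Partek are the tools listed in the submitters' processing notes. After RMA a dim probe set keeps a low value above 0, and differences near that floor are compressed. Neither scanner output nor a detection call entered the work. Of 45101 probe sets, 64 controls were left out and 45037 were fitted without a filter in limma 3.58.1 (lmFit, then eBayes, under R 4.3.3; 4 residual and 5.05 prior degrees of freedom, two-sided, Benjamini-Hochberg over all, threshold 0.05). Differences are knockout minus wild type with the standard error of the fit. A gene was read through its probe set of highest mean. All 79 symbols matched the RefSeq table of GRCm38.p6 by Entrez identifier. The fit was tested on simulated data.

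Values of all arrays are given, within each of 5 subfamilies, for the 3 genes of highest mean and the 4 of smallest p, for genes with a probe set at an unadjusted p under 0.01 and no overlap, and for others a count turns on. Members and lists were chosen with earlier results of these data known, so no test over a list was made. Alternatives covered normalization, filters, eBayes settings, array weights, the reading of a gene and left-out arrays. Figures were drawn with matplotlib 3.10.9.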

Additional observations from a re-analysis of the deposited data

How the results depend on the processing

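The count of potassium channel probe sets past the adjusted limma threshold was 0 under every alternative in which it was taken. It was not taken where a gene was read by its probe set of largest SD or by the mean of its probe sets. The call of Gnb5 held with 1 array left out, from -5.75 to -5.41, and was not read under the other normalizations, filters or eBayes settings. At an unadjusted p under 0.05, leaving out 1 array gave 7 to 20 higher probe sets and 0 to 7 lower ones, and a refit on only the brightest probe set of each gene, which re-estimates the prior variance, gave 9 higher where the fit over all probe sets gives 8 for the same genes. Without the arrays of highest Eif2s3y 0 were lower, and without those of highest Gh 4 were. With 1 array left out, medians ran from 0.047 to 0.077 for all members, -0.0063 to 0.055 for Kv, 0.050 to 0.147 for Kir, 0.071 to 0.135 for calcium-activated genes, 0.058 to 0.112 for K2P and 0.028 to 0.170 for auxiliary genes. Quantile normalization gave 0.042 for all members and 0.092 for K2P. Leaving out dim probe sets gave 0.093 for all members, 0.064 for calcium-activated and 0.158 for auxiliary genes. Without the highest Eif2s3y, K2P was 0.084, calcium-activated 0.061 and auxiliary -0.00057. Without the highest Gh, all members were 0.039, Kv -0.033, K2P 0.052 and auxiliary 0.188. By the probe set of largest SD, all members were 0.107, K2P 0.169 and auxiliary 0.159. Over all member probe sets, median signals were 6.54 for Kv, 5.23 for Kir, 4.88 for K2P, 7.32 for calcium-activated and 6.36 for auxiliary genes. The list of G protein-gated subunits and Kcnj13 had a median of -0.027 with all probe sets of a gene averaged, against -0.16. The cause of these shifts was not tested. Of 418 values for 30 named genes, 409 kept their sign, 9 turned and 0 passed. No paired analysis was possible because numbers 1 to 3 mark knockouts and 4 to 6 wild types. The number of arrays limits the precision.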

Other observations

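Bright and dim potassium channel genes leaned in different directions, a split at percentile 80 of the wild-type signals that was chosen after the values were seen and was not tested. Above it, 10 of 26 genes of the 5 subfamilies had a positive difference and the median was -0.05, where 53.4% of 5875 genes of like signal were positive with a median of 0.02. At or under it, 36 of 50 were positive with a median of 0.10, where 62.9% of 12318 genes were positive with a median of 0.06. Among Kv genes the bright ones were positive at 5 of 14 and the others at 12 of 17. The lowest of the bright Kv genes were Kcna2 and Kcnc2, and the highest were Kcnc4 and Kcna6.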
